A study of Mus musculus with 4 samples.

Results

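Transcripts of the machinery that brings new secretory and membrane proteins into the endoplasmic reticulum (ER) were measured in mouse quadriceps by RNA sequencing. The group holds 32 genes of 23482 listed, taken by symbol: 5 subunits of the signal recognition particle (SRP), 2 of its receptor, 6 of the translocon and its partners, 4 of the translocon-associated protein (TRAP) complex, 5 of the signal peptidase complex and 10 of the oligosaccharyl transferase (OST). The libraries came from FVB/N mice of 6 to 8 weeks: 2 from Thbs1 transgenic muscle, which overexpresses thrombospondin-1, a secreted glycoprotein, and 2 from non-transgenic control muscle. The labels give no driver for the transgene and do not say whether each library came from a separate animal, so p-values measure the spread between these libraries, which may be technical. The comparison asks how transcripts change in skeletal muscle when Thbs1 is overexpressed.

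As a nascent secretory protein leaves the ribosome, SRP binds its signal sequence and carries the ribosome to the SRP receptor on the ER membrane. The chain then passes through the Sec61 channel, signal peptidase removes the signal sequence, and OST transfers a preassembled glycan from a dolichol carrier to asparagine residues. In muscle fibres this route makes the receptors, channels, adhesion proteins and matrix components of the cell surface.

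Thbs1 had 12900 and 15411 RPKM (reads scaled by the length of the gene model and by the reads of the library) in the transgenic libraries, against 8.61 and 12.2 RPKM in control muscle. On the log2(RPKM + 1) scale, used for all log2 fold changes here, transgenic minus control was 10.29 for Thbs1 (SE 0.23, adjusted p = 0.000564). Thbs1 took 12.0% and 14.4% of all reads in genes in transgenic muscle, and 0.00802% and 0.0114% in control muscle. Reads in genes numbered 18815221 to 20053685 a library. Of all 10015 genes tested, limma called 626 higher (6.25%) and 122 lower (1.22%) in transgenic muscle at an adjusted p under 0.05, and the median log2 fold change was 0.10. Scaling by median-of-ratios factors in place of total reads put that median at -0.04, with 501 genes higher (5%) and 247 lower (2.47%). Summed RPKM of 7 skeletal muscle fibre markers was 16295 and 17651 in transgenic muscle, against 25015 and 25478 in control muscle. Of these 7, 0 were called by limma, with 1 higher and 4 lower at an unadjusted p under 0.05. Of all genes, 20.4% were higher and 7.46% lower at that threshold. Limma-voom called 3 of the 7 lower, against 1.71% of all genes.

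In transgenic muscle 17 of the 32 genes rose and 0 fell, where 6.25% of all genes tested rose. All 32 log2 fold changes were positive, with a median of 0.90, and they stayed positive under each scaling tried. By limma, 26 members were higher and 0 lower at an unadjusted p under 0.05, against 20.4% and 7.46% of all genes. The alternative limma-voom on recovered reads called 18 higher and 0 lower, against 6.13% and 1.71% of all genes. Scaling by median-of-ratios factors left 14 members called higher, against 5% of all genes, with a median of 0.72. Both transgenic libraries lay above both controls for 31 members, a pattern found in 38.4% of all genes tested. Members called by complex numbered 1 of 5 in SRP, 1 of 2 in the SRP receptor, 2 of 6 in the translocon, 3 of 4 in TRAP, 4 of 5 in signal peptidase and 6 of 10 in OST. All 32 members had at least 1 RPKM in every library, with 72 to 9643 reads each, so none entered the test through the transgenic group alone. The authors' deposited table has 16 members higher at an adjusted p under 0.1, against 5.55% of the genes it tests.

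The number called depended on single libraries. Without control library 2, 0 members were called by limma, with adjusted p of 0.0739 to 0.158 for the 17. That setting called 1 gene higher among all those tested, while the other 3 called 353 to 593. Without control library 1, 9 members were called, and the losses were Srp19, Sec61a1, Ssr4, Spcs2, Sec11a, Sec11c, Rpn1 and Rpn2. Leaving out transgenic library 1 gave 8, with losses of Srp19, Srprb, Sec61a1, Ssr1, Ssr4, Spcs2, Sec11a, Rpn1 and Rpn2. Leaving out transgenic library 2 gave 15, with losses of Srp19 and Rpn2. Without the filter on low values 5 were called (Tram1, Ssr2, Spcs3, Ddost and Ostc), where 0.76% of all genes were called higher.

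**Figure D1:**
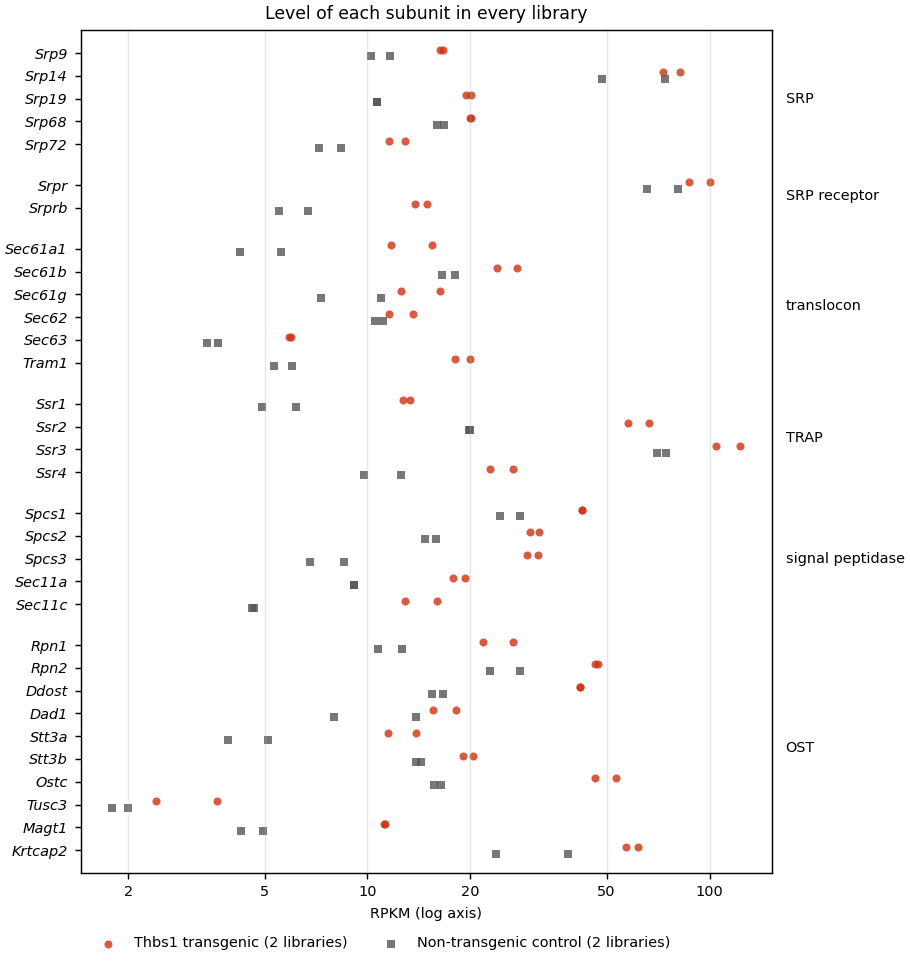
RPKM of each of the 32 genes on a log axis, with 1 point for each library: circles for Thbs1 transgenic and squares for non-transgenic control muscle. For 31 genes both transgenic libraries lie to the right of both controls, and for Srp14 the groups overlap.

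SRP binds the ribosome and pauses translation through its Alu domain, which holds Srp9 and Srp14, and recognises the signal sequence through its S domain, which holds Srp19, Srp68 and Srp72. Srp19, which helps to assemble the particle, rose. It had 20.1 and 19.4 RPKM in transgenic muscle, against 10.6 and 10.7 RPKM in control muscle. The replicates lay close together and the groups did not overlap. Srp19 differed by 0.83 on the log2 scale (SE 0.14, adjusted p = 0.0344), but not past the threshold after median-of-ratios scaling, where the adjusted p was 0.0604.

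For Srp14 the libraries held 73.3 and 81.7 RPKM in transgenic muscle, against 48.3 and 74.0 RPKM in controls. The higher control lay between the transgenic libraries, so the groups overlapped. Srp9, its partner, had 16.3 and 16.7 RPKM in transgenic and 10.2 and 11.6 RPKM in control muscle. Srp68 had 20 and 19.9 RPKM in transgenic and 16.0 and 16.7 RPKM in control muscle. None of these 3 was called, nor was Srp72, which binds Srp68. The log2 fold changes were 0.55 for Srp9, 0.37 for Srp14, 0.27 for Srp68 and 0.59 for Srp72, and the adjusted p ran from 0.083 for Srp72 to 0.391 for Srp14.

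The SRP receptor joins Srpr, the GTPase that meets SRP, to Srprb, a small GTPase that spans the membrane. Srprb rose, with 14.97 and 13.8 RPKM in transgenic muscle, against 6.70 and 5.50 RPKM in control muscle. This was a log2 fold change of 1.12 (SE 0.16, adjusted p = 0.0247). Srpr was the more abundant subunit per length and had 87.4 and 100.4 RPKM in transgenic muscle, against 80.8 and 65.5 RPKM in controls. Its groups lay apart by less than the distance between the controls (log2 fold change 0.36, SE 0.19, adjusted p = 0.282). Srprb shares 888 exon bases with Gm20425 on the same strand, whose level was not analysed here, so its reads are less certain. The ratio of Srprb to Srpr was 0.171 and 0.137 in transgenic and 0.0829 and 0.0840 in control libraries. This ratio was chosen after its values were seen, and with 2 libraries against 2 an exact two-sided permutation test of the difference between groups cannot go below p = 0.333, which it gave.

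The 150 bases before the start sites of both receptor genes are shown because 1 of the pair passed the test and the other did not. Capitals mark CCACG and CCAAT, the parts of the ER stress response element, and TGACGTG, the core of the unfolded protein response element, on either strand. The windows are chr9:103202066-103202215 on the reverse strand for Srprb and chr9:35211053-35211202 on the forward strand for Srpr (GRCm38, RefSeq start sites), both written 5′ to 3′.
Srprb: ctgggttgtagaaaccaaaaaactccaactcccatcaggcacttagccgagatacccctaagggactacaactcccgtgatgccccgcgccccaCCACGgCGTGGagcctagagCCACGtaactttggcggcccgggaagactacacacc
Srpr: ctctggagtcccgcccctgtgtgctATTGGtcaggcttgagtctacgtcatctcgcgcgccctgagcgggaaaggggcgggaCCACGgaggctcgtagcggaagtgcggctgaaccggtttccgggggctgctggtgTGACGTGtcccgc
Srprb held CCACG 3 times in this window, 1 of them on the reverse strand, and no CCAAT. The Srpr window held CCACG, also CCAAT on the reverse strand, and the core of the unfolded protein response element between 13 and 7 bases before the start site. Upstream of the printed window, Srpr also held CCACG on the forward strand, with matches starting at -233 and -173 from the start site. Srprb held no further CCACG within 250 bases before its start site. The difference in CCACG between the printed windows therefore depends on where they were cut.

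The translocon centres on Sec61a1, the channel itself, with the small subunits Sec61b and Sec61g. Sec61a1 rose, with 15.5 and 11.7 RPKM in the transgenic libraries, against 5.59 and 4.24 RPKM in control muscle (log2 fold change 1.30, SE 0.20, adjusted p = 0.0303). The lower transgenic value was still over the higher control. Exons of Sec61a1 share 549 bases with the antisense gene Gm44170, whose level was not analysed here. Sec61b had 27.3 and 23.9 RPKM in transgenic and 18.1 and 16.5 RPKM in control muscle, a log2 fold change of 0.54 that was not called (adjusted p = 0.0996). Sec61g had 12.5 and 16.3 RPKM in transgenic and 7.34 and 10.96 RPKM in control muscle (log2 fold change 0.62, adjusted p = 0.173). GENCODE lists 9 pseudogenes that match Sec61g at 90% identity or more over at least 200 bases, and 2 that match Sec61b. By the same rule 2 match Srpr, and 1 each matches Srp9, Srp19 and Spcs2. Exons of Srp9, Ssr2 and Sec11a share 784, 239 and 216 bases with the pseudogenes Gm17968, Gm10704 and Gm16171 on the opposite strands. The reads of all these genes are less certain. In RPKM, the ratio of Sec61a1 to Sec61b was 0.567 and 0.491 in transgenic and 0.310 and 0.257 in control libraries, a pair also chosen after its values were seen (exact p = 0.333).

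Tram1, which contacts signal sequences beside the channel, rose most of the translocon group. It had 19.9 and 18.1 RPKM in transgenic libraries, against 6.0 and 5.33 RPKM in controls, 3.35-fold by group means (log2 fold change 1.58, SE 0.15, adjusted p = 0.0123). Tram1 maps to chr1:13564698-13589910, reverse strand (GRCm38). Sec62 and Sec63 serve chains that enter after translation, with Sec63 recruiting the lumenal chaperone BiP. Sec63 had 5.89 and 5.98 RPKM in transgenic and 3.65 and 3.41 RPKM in control muscle, with tight replicates, and an adjusted p of 0.0613. Sec62 had the smallest fold change of the 32 genes, at 11.6 and 13.6 RPKM in transgenic and 11.1 and 10.5 RPKM in control muscle (log2 fold change 0.20, SE 0.15, adjusted p = 0.467). With median-of-ratios scaling its log2 fold change was 0.03.

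The TRAP complex, whose subunits Ssr1 to Ssr4 are also called TRAP alpha to delta, sits beside Sec61 and aids the entry of some chains. Ssr2 rose to 66.5 and 57.6 RPKM in transgenic libraries, against 19.9 and 19.8 RPKM in controls. The controls were nearly equal, and the log2 fold change was 1.59 (SE 0.16, adjusted p = 0.0127). Ssr2 maps to chr3:88575876-88588419, forward strand. Ssr1 had 13.3 and 12.7 RPKM in transgenic and 6.19 and 4.91 RPKM in control muscle (log2 fold change 1.10, adjusted p = 0.0271). Ssr4 had 26.6 and 22.8 RPKM in transgenic and 12.5 and 9.74 RPKM in control muscle (log2 fold change 1.09, adjusted p = 0.0354). Both rose, while Ssr3 was not called. Ssr3 had the highest level of the complex, 123.1 and 104.8 RPKM in transgenic and 74.6 and 70.1 RPKM in control muscle (log2 fold change 0.64, SE 0.17, adjusted p = 0.0843).

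**Figure D2:**
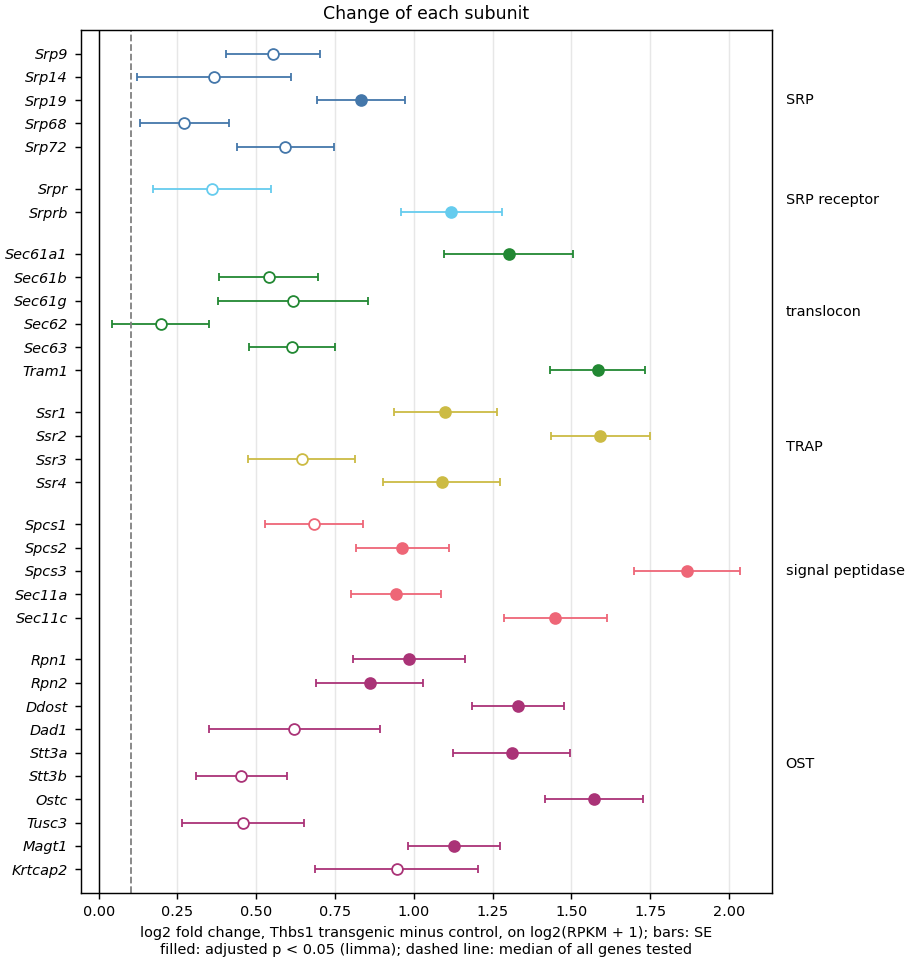
Log2 fold change of each gene, Thbs1 transgenic minus control, on the log2(RPKM + 1) scale, with its standard error as a bar, grouped by complex. Filled points passed an adjusted p of 0.05 by limma, and all 32 points lie to the right of the dashed line at 0.10, the median of all genes tested.

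Signal peptidase cuts the signal sequence with a catalytic subunit, either Sec11a or Sec11c, held by Spcs1, Spcs2 and Spcs3. Spcs3, a subunit needed for activity in yeast, had the largest fold change of the 32 genes. Its levels were 31.5 and 29.3 RPKM in transgenic libraries, against 8.53 and 6.77 RPKM in controls, 3.98-fold by group means (log2 fold change 1.87, SE 0.17, adjusted p = 0.0118). Spcs3 maps to chr8:54520433-54529998, reverse strand. Its exons share 75 bases with Asb5 on the opposite strand. Asb5 had 55.4 and 58.0 RPKM in transgenic and 56.3 and 59.6 RPKM in control muscle, where the groups overlapped. Exons of Spcs1 share 252 bases with Glt8d1 and exons of Sec11a share 163 bases with Nmb, and these partners lay between 0.298 and 2.07 RPKM in all 4 libraries. Spcs2 rose to 31.7 and 29.9 RPKM in transgenic muscle, against 14.7 and 15.9 RPKM in controls (log2 fold change 0.96, adjusted p = 0.0291), but the adjusted p was 0.0533 after median-of-ratios scaling. Spcs1 had 42.5 and 42.4 RPKM in transgenic and 27.9 and 24.4 RPKM in control muscle and was not called (adjusted p = 0.0634).

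Both catalytic subunits rose. Sec11c had 16.0 and 12.9 RPKM in transgenic libraries, against 4.66 and 4.599 RPKM in controls (log2 fold change 1.45, SE 0.16, adjusted p = 0.0158). Sec11a had 19.3 and 17.7 RPKM in transgenic libraries, against 9.16 and 9.11 RPKM in controls (log2 fold change 0.94, SE 0.14, adjusted p = 0.0286). The controls of each were nearly equal. Sec11a was 1.21 and 1.37 times Sec11c in transgenic and 1.97 and 1.98 times Sec11c in control libraries. The log2 ratio was thus 0.62 lower, as a difference of -0.62, and the groups did not overlap (exact p = 0.333, the smallest possible).

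OST exists in vertebrates in 2 forms that share Rpn1, Rpn2, Ddost, Dad1 and small subunits. The form built on Stt3a binds the translocon through Ostc and Krtcap2 and glycosylates chains as they enter. The form built on Stt3b acts also on completed chains and carries the oxidoreductase Magt1 or Tusc3. Stt3a and Stt3b are the catalytic subunits.

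Of the shared subunits, Ddost changed most, with 41.8 RPKM in both transgenic libraries, against 16.6 and 15.5 RPKM in control muscle (log2 fold change 1.33, SE 0.15, adjusted p = 0.0154). Rpn1, which brings some substrates to the enzyme, had 26.6 and 21.7 RPKM in transgenic and 12.6 and 10.7 RPKM in control muscle (log2 fold change 0.99, adjusted p = 0.0398). Rpn2 had 47.1 and 46.1 RPKM in transgenic and 27.9 and 22.8 RPKM in control muscle (log2 fold change 0.86, adjusted p = 0.0472). All 3 rose, though Rpn2 missed the threshold after median-of-ratios scaling, at an adjusted p of 0.072. Dad1 had 18.1 and 15.6 RPKM in transgenic and 7.99 and 13.9 RPKM in control muscle, where the controls differed more than the higher control and the lower transgenic library did (adjusted p = 0.214).

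In the Stt3a form, Stt3a had 13.9 and 11.4 RPKM in transgenic libraries, against 5.13 and 3.92 RPKM in controls (log2 fold change 1.31, SE 0.19, adjusted p = 0.0242). Ostc had 53.1 and 46.3 RPKM in transgenic libraries, against 16.4 and 15.7 RPKM in controls (log2 fold change 1.57, SE 0.16, adjusted p = 0.0127). Both rose, and Ostc had the largest fold change within OST. Ostc maps to chr3:130695912-130709444, reverse strand. Krtcap2 had 61.6 and 57.1 RPKM in transgenic and 23.7 and 38.6 RPKM in control muscle (log2 fold change 0.95, SE 0.26, adjusted p = 0.0895). The groups lay apart, but control library 2 was well above control library 1. Rpn2 and Krtcap2 share 242 and 239 exon bases with Mroh8 and Trim46 on the opposite strands, which were under 1 RPKM in all 4 libraries. Without control library 2 the log2 fold change of Krtcap2 was 1.29, and without control library 1 it was 0.61.

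In the Stt3b form only Magt1 passed the test, at 11.3 and 11.2 RPKM in transgenic libraries, against 4.93 and 4.27 RPKM in controls (log2 fold change 1.13, SE 0.15, adjusted p = 0.0203). Stt3b had 20.4 and 19.0 RPKM in transgenic and 13.9 and 14.3 RPKM in control muscle (log2 fold change 0.45, SE 0.14, adjusted p = 0.118). Tusc3 was the least abundant of the 32 genes per length, at 3.63 and 2.41 RPKM in transgenic and 1.79 and 2.0 RPKM in control muscle (log2 fold change 0.46, adjusted p = 0.2), with 72 to 151 reads. Stt3a was 0.683 and 0.603 times Stt3b in transgenic libraries, against 0.369 and 0.274 times in controls, a difference of 1.01 in the log2 ratio. Tusc3 was 0.322 and 0.216 times Magt1 in transgenic libraries, against 0.363 and 0.468 times in controls, a difference of -0.65 in the log2 ratio. Neither ratio overlapped between groups, and each had the smallest exact p possible (0.333). The levels behind these ratios rest on the length of the authors' gene models, which the values put at 846 to 10857 bases for the 32 genes, with 10857 bases for Magt1, where the union of GENCODE exons has 4672.

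**Figure D3:**
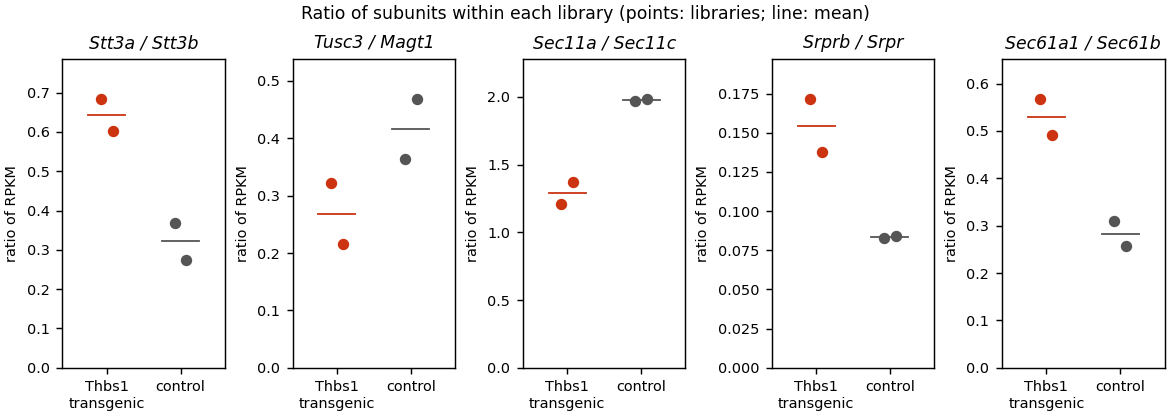
Ratio of RPKM between paired subunits within each library, with the Thbs1 transgenic libraries on the left and the controls on the right of each panel; points are libraries and lines are means of 2 libraries. In all 5 panels the groups lie apart, and Stt3a over Stt3b is 0.683 and 0.603 in transgenic and 0.369 and 0.274 in control libraries. Srprb over Srpr and Sec61a1 over Sec61b were chosen after their values were seen, so their separation is no test. Each pair has an exact permutation p of 0.333, the smallest possible.

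The same stretch before the start site is shown for Stt3a and Stt3b, the catalytic pair, and for Ddost, with the same motifs searched. The windows are chr9:36767623-36767772 and chr9:115310469-115310618 on the reverse strand for Stt3a and Stt3b, and chr4:138304588-138304737 on the forward strand for Ddost (GRCm38). For Krtcap2, on the forward strand at chr3:89246480-89246509, the 30 bases that run from 8 to 37 after 1 of its start sites are shown. Among the members with an entry it alone held the second form of the ER stress response element, in which ATTGG is followed by 1 base and then CCACG.
Stt3a: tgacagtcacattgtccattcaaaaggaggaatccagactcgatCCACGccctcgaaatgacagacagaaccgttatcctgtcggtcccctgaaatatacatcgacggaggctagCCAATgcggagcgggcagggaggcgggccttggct
Stt3b: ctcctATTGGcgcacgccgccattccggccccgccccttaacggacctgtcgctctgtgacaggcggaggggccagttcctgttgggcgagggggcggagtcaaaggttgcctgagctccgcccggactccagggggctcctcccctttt
Ddost: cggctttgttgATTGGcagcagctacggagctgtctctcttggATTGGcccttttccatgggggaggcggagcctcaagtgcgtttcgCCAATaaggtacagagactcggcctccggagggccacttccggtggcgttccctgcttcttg
Krtcap2: agggacacggATTGGACCACGgacggggcg
In these stretches Stt3a held a CCACG match and a CCAAT match on the forward strand, and Stt3b held CCAAT on the reverse strand. Ddost held CCAAT 3 times, 2 of them on the reverse strand. Outside the printed stretches, Stt3b held CCACG between 239 and 235 bases before its start site. Ddost held CCACG from 18 to 22 and from 32 to 36 after its start site, the first on the reverse strand. Promoter windows of 300 bases, from 250 before to 50 after a start site, were in the RefSeq table for 23 of the 32 members. The first form of the element, in which CCAAT is followed by 9 bases and then CCACG, on either strand, was in 0 of these 23 members and in 0.119% of all 32851 windows. The second form was in 1 member and in 0.0365% of windows, and a match to it is also a match to CCAAT on the opposite strand and to CCACG. The TGACGTG core was in 1 member, Srpr, and in 2.01% of windows. CCACG was in 15 members and CCAAT was in 14 of the 23, and in 32.8% and 37.4% of windows. Counted by gene, as the members are, the shares were 35.5% and 41.1% of all 27025 genes with an entry. Among the 7365 tested genes with an entry, 52.6% held CCACG, and for CCAAT the share was 42.0%. Of these genes 0.204% held the first form, 0.095% the second form and 3.38% the TGACGTG core.

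Of 64 other tested genes of the pathway 6 rose and 0 fell by limma, where 6.25% of all genes rose. At an unadjusted p under 0.05, 22 were higher and 1 was lower, against 20.4% and 7.46% of all genes. Limma-voom called 5 higher and 0 lower, against 6.13% and 1.71% of all genes. Their median log2 fold change was 0.30. Remaining subunits of the same complexes had a median of 0.71, with 1 of 7 called. It was Tram2, a relative of Tram1 linked to collagen synthesis, at 4.90 and 5.24 RPKM in transgenic and 2.53 and 2.86 RPKM in control muscle (adjusted p = 0.0478). That call was lost under every other setting that kept Thbs1 and the 0.05 threshold (adjusted p between 0.0525 and 0.15). Sec61a2, the second channel gene, was the gene at an unadjusted p under 0.05 on the lower side, with 6.50 and 7.38 RPKM in transgenic and 10.5 and 10.3 RPKM in control muscle (log2 fold change -0.52, adjusted p = 0.0917). Limma-voom with median-of-ratios factors called it lower (-0.78, adjusted p = 0.0483). Srp54a, Srp54b and Srp54c, near-identical copies of the SRP subunit that binds signal sequences, differed by 0.71, 0.77 and 0.81 on the log2 scale (adjusted p = 0.106, 0.0936 and 0.083), and the authors' counting may have split or shared their reads.

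Enzymes of glycan supply showed a mixed picture. Of 9 tested genes of sugar nucleotide synthesis 3 rose, where 6.25% of all genes tested rose. Of these 9, 7 had a positive log2 fold change, as did 6114 of all 10015 genes tested. Gnpnat1 and Mpi had negative values, -0.34 and -0.33, and were not called (adjusted p = 0.252 and 0.264). After median-of-ratios scaling both stood at -0.50 (adjusted p = 0.0874 and 0.102). Gmppa, a subunit of the enzyme that makes GDP-mannose, had 19.1 and 16.5 RPKM in transgenic libraries, against 6.76 and 5.59 RPKM in controls (log2 fold change 1.39, SE 0.17, adjusted p = 0.018). Gmppb, the catalytic subunit, had 9.80 and 8.62 RPKM in transgenic and 4.90 and 4.64 RPKM in control muscle (adjusted p = 0.0387). Pmm1, a phosphomannomutase, had 6.31 and 4.58 RPKM in transgenic and 2.52 and 2.25 RPKM in control muscle (adjusted p = 0.0485). Gfpt1, the first enzyme of the hexosamine pathway, was not called (log2 fold change 0.62, adjusted p = 0.0654). Without control library 2 all 3 calls were lost (adjusted p of 0.0899 to 0.181). Gmppb was not called when any 1 library was left out (0.0664 to 0.148). Pmm1 was not called without transgenic library 1 (0.142) or control library 1 (0.0952), or with a pseudocount of 0.1 (0.0522). Without the filter on low values none of the 3 was called (0.0561 to 0.105). With the replicate number as a block Gmppb and Pmm1 were not called (adjusted p = 0.057 and 0.0519). Of 21 tested genes that build the dolichol-linked glycan 0 were called by limma or limma-voom and 6 were higher at an unadjusted p under 0.05, against 20.4% of all genes. Of the 6, Alg12 and Alg8 had under 1 RPKM in both controls and passed the filter on low values through the transgenic libraries alone. The smallest p among them was that of Dpagt1, which starts the glycan, at 14.4 and 11.01 RPKM in transgenic and 6.42 and 6.99 RPKM in control muscle (adjusted p = 0.0592). Alg12, Alg5 and Dhdds had adjusted p of 0.0712, 0.0775 and 0.08.

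Among 5 tested genes that trim the glycan or add glucose back, 2 rose, where 6.25% of all genes tested rose. Uggt1, which puts glucose back on unfolded glycoproteins, had 9.80 and 10.7 RPKM in transgenic libraries, against 3.69 and 2.92 RPKM in controls (log2 fold change 1.39, SE 0.16, adjusted p = 0.0174). Prkcsh, the beta subunit of glucosidase II, had 17.5 and 18.5 RPKM in transgenic and 8.89 and 10.3 RPKM in control muscle (adjusted p = 0.0404), which missed the threshold after median-of-ratios scaling (0.0904) and when any 1 library was left out (0.0891 to 0.115). The call of Uggt1 was lost without control library 2 (adjusted p = 0.0863). Without the filter on low values neither Uggt1 nor Prkcsh was called (adjusted p = 0.0561 and 0.0748). Prkcsh was also not called with the replicate number as a block (adjusted p = 0.0593). Ganab, the alpha subunit of glucosidase II, Mogs, glucosidase I, and Man1b1, a mannosidase, were not called. These 3 stood at 0.42, 0.58 and 0.42 on the log2 scale (adjusted p = 0.19, 0.0978 and 0.122).

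Insertion routes that do not use the SRP and Sec61 path alone had medians near that of all genes. The ER membrane complex, an insertase, had a median log2 fold change of 0.02 over 10 genes, with 0 called by limma or limma-voom and 2 higher at an unadjusted p under 0.05, against 20.4% of all genes. Emc3 and Emc7 had the smallest p, at 0.57 and 0.46 on the log2 scale (adjusted p = 0.0788 and 0.116), while Emc9 and Emc10 had 0.29 and 0.31 (adjusted p = 0.252 and 0.259). Of the 10 genes only 5 had a positive log2 fold change, as did 6114 of all 10015 genes tested. Emc4 had the lowest, -0.29 (adjusted p = 0.283). Tail-anchored insertion had a median of -0.03 over 6 genes, with 0 called by limma or limma-voom and 1 higher at an unadjusted p under 0.05, Get4 (log2 fold change 0.66, adjusted p = 0.0661). Caml, Sgta and Bag6 of that route stood at 0.23, -0.11 and -0.07 (adjusted p = 0.452, 0.707 and 0.8). Partners of the translocon for multipass proteins had a median of 0.06 over 6 genes, with 0 called by limma or limma-voom and 0 at an unadjusted p under 0.05. Among them Tmco1, Ccdc47, Tmem147 and BC056474 stood at 0.30, -0.14, -0.21 and 0.10 (adjusted p = 0.318, 0.575, 0.622 and 0.693). After median-of-ratios scaling these 3 medians were -0.14, -0.20 and -0.11, so the first and the last changed sign, and that of all genes was -0.04.

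**Figure D4:**
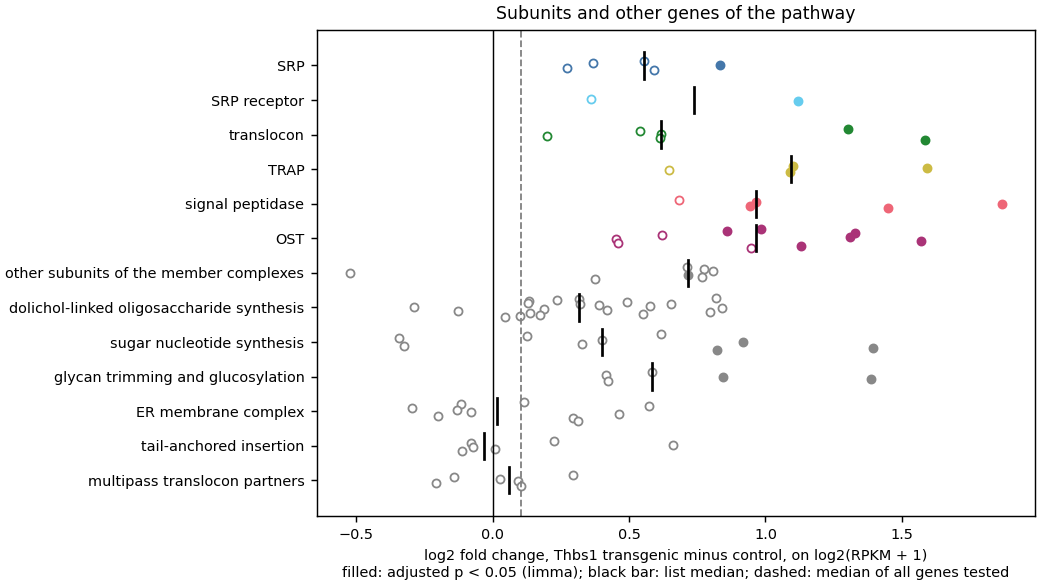
Log2 fold change of each tested gene, Thbs1 transgenic minus control, by complex and by list of other pathway genes; filled points passed an adjusted p of 0.05, black bars are medians and the dashed line is the median of all genes tested. The medians run from 0.55 for SRP to 1.09 for TRAP among the 6 groups of members, and lie at 0.02, -0.03 and 0.06 for the last 3 lists.

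Markers of some other cell types were higher in transgenic muscle, while the sums of endothelial markers overlapped between the groups. In a muscle sample more cells of a type and more RNA per cell cannot be told apart. Of 10 macrophage markers 8 were called higher by limma, which called 6.25% of all genes tested higher. Of the 10, Cd68 and Emr1 passed the filter on low values through the transgenic libraries alone. The summed RPKM of the list was 269.8 and 243.8 in transgenic libraries, against 84.1 and 53.6 in controls. The 8 fibro-adipogenic markers, of which 2 rose, summed to 675.4 and 674.3 RPKM in transgenic libraries, against 574.9 and 277.7 in controls. Of 9 plasma and B cell markers 3 were tested. Limma-voom called 1 higher, against 6.13% of all genes, and limma called 2 higher, Mzb1 and Igj. Both had under 1 RPKM in each control and so passed the filter on low values through the transgenic libraries alone. The sums of the list were 22.2 and 17.2 RPKM in transgenic libraries, against 2.74 and 1.61 in controls. Ms4a1, a B cell marker, was listed at 0 in all 4 libraries. Adipocyte markers summed to 97.7 and 7.06 RPKM in the transgenic libraries, against 7.12 and 6.93 in controls, so transgenic library 1 stood apart. The 6 endothelial markers summed to 44.2 and 28.3 RPKM in transgenic libraries, against 40.8 and 29.9 in controls, and the 5 T cell markers to 1.09 and 1.38, against 0 and 0.0573. The part of these cells in the changes above was not tested.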

How the data were processed

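Quadriceps RNA of 2 Thbs1 transgenic and 2 control libraries was grouped by the sample titles. Per the submitters' processing notes, bcl2fastq, TopHat and edgeR were used with mm10; roles and versions are not given in the sources used here. The authors deposited RPKM per library, a base mean per group (a signal: reads over a size factor) and p-values. A test for counts had been planned only for a file of counts. RPKM and base means together gave whole reads for 100% of values within 1e-06 of a read, used for depth, limma-voom and rescaling.

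The test was that of limma 3.58.1 (R 4.3.3), two-sided, with a mean-variance trend and no covariates, on log2(RPKM + 1). It covered the 10015 genes that reached 1 RPKM in 2 libraries or more, with Benjamini-Hochberg adjustment over all of them. This scale understates changes of low genes. The test was tried on simulated reads. Members and lists were chosen with earlier results of these data known. Thbs1, all members and, per other list, the 4 tested genes of smallest p were named, or all where 5 or fewer were tested. Srp54a, Alg8, Gnpnat1, Mpi, Emc4, Cd68 and Emr1 were added after their values were seen. Ms4a1, Mzb1 and Igj are named as markers. Member and pathway symbols were matched to the table, 3 by gene identifier (Caml, Asna1 and BC056474), and Get1 was not matched. Coordinates are from GENCODE M21 (GRCm38, called mm10) and sequences from RefSeq (GRCm38.p6). No source states strandedness, so overlapping genes may share reads. BLAST 2.17.0 matched pseudogenes. Python 3.11.15 was used.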

Additional observations from a re-analysis of the deposited data

How the results depend on the processing

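Limma-voom with median-of-ratios factors was added after seeing the data. All 32 members kept a positive log2 fold change under each setting, and each setting reuses these libraries. Members called higher numbered 17, and 5 with no filter and 0 to 15 when a library was left out. At an adjusted p under 0.1, 24 members were called higher. Members called lower numbered 0 throughout. Of all genes, 626 were higher and 122 lower, against 135 and 11 with no filter and 1303 and 402 at an adjusted p under 0.1. Without Thbs1 in library sizes and test 25 members and 1458 of all genes (14.6%) were higher, with median log2 fold changes of 1.10 and 0.26. Genes lower numbered 247 with median-of-ratios scaling and 469 with limma-voom and these factors. Leaving out each library gave 1 to 593 higher and 0 to 104 lower, and the lone sample is then assumed to vary like the other group. With the replicate number as a block, 14 members (Srp19, Spcs2 and Rpn2 lost, adjusted p of 0.0538 to 0.0689), 497 genes higher (4.96%) and 64 lower were called. Deviations of libraries with the same number correlated at 0.0742. The titles do not state that these libraries were paired, and with 2 libraries per group this value cannot settle it. Other pathway genes, all uncalled, also turned sign in log2 fold change without Thbs1 or with median-of-ratios scaling, beyond those named for smallest p. Among the latter, log2 fold changes turned sign without Thbs1 for Sgta (0.0852), Bag6 (0.104) and Ccdc47 (0.0566), all uncalled. For BC056474, also uncalled, they did so with median-of-ratios scaling (-0.0764) or limma-voom with these factors (-0.0786). When a library was left out they ran from -0.233 to 0.00688 for Sgta, -0.198 to 0.0513 for Bag6 and -0.477 to 0.0646 for Tmem147. The log2 ratio differences without a library ran from 0.80 to 1.23 for Stt3a over Stt3b, from -0.94 to -0.36 for Tusc3 over Magt1 and from -0.71 to -0.52 for Sec11a over Sec11c. The cause of these shifts was not tested.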
